A study of Mus musculus with 28 samples.

Results

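The comparison described here is a single exposure to ozone against sham air, measured at day 1 as messenger RNA of the whole mouse lung. The groups were taken from the sample titles, which put 4 libraries in the ozone group and 4 in the sham group, so 8 of the 28 libraries of the study enter the comparison itself. All mice were wild type male C57BL/6, an inbred laboratory strain, and the labels name no altered allele and no agent besides the inhaled gas. Their age is given as 8 to 12 weeks in the age label and as 8 weeks in the treatment protocol. Ozone mice breathed ozone at 2 ppm for 3 hours, and the sham mice are the air group of the same design. The rest of the study used the same design for inhaled carbon black at 10 mg/m3 and for co-exposure to both at day 1, and repeated all groups after 4 exposures at day 4 with 3 libraries each. How long after exposure the lungs were taken is not stated in the labels. No label says that a library is a separate mouse, and the p-values therefore reflect only the spread between libraries, which may be technical.

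Ozone is a reactive gas that is consumed in the fluid lining the airways, where it oxidises lipids and proteins and injures ciliated and alveolar lining cells. Oxidised products are known to release the transcription factor NRF2 from its inhibitor KEAP1, after which NRF2 binds antioxidant response elements and raises genes for glutathione and thioredoxin metabolism. Injured epithelium is known to shed growth factors of the EGF family, to release interleukin 6 type cytokines that act through the receptor gp130 and STAT3, and to be replaced by division of club and alveolar type 2 cells.

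Each of the 8 libraries held 5922424 to 8383771 estimated counts and had a count for 17156 to 17752 genes. Levels are CPM, the usual counts per fixed library total after scaling, given in the order of replicates 1 to 4, differences are log2 fold changes with standard error (SE), and a gene passed when its Benjamini-Hochberg adjusted p from edgeR's quasi-likelihood test was under 0.05. Of 14887 genes tested 1704 passed, which is 11.4%, with 1014 higher (6.81%) and 690 lower (4.63%) after ozone. These shares of all genes are the background for each list count against sham given below. The median log2 fold change over all genes was -0.01. The 4 and 4 libraries did not overlap in 3161 genes, 21.2% of those tested. Most changes were small: 235 genes rose and 126 fell by at least 1 on the log2 scale, and 56 rose and 12 fell by at least 2. Without ozone replicate 4 the count of genes past the threshold was 904, and without both libraries numbered 2 it was 1069. Those 2 libraries stood apart in genes of other tissues. The mean log2 CPM over 15 skeletal muscle genes was 7.03 in sham replicate 2 and 5.89 in ozone replicate 2, against -0.07 to 0.64 in the other 6, and sham replicate 2 also stood at 6.04 over 7 adipose tissue genes against 1.72 to 3.46 elsewhere. The muscle actin gene Acta1, at 0.397, 607, 1.15 and 0 CPM in sham and 0.169, 269, 1.11 and 0.14 CPM after ozone, and the brown fat gene Ucp1, at 4.63, 78.0, 0 and 0.245 and 0.169, 0, 0.138 and 0 CPM, were high in the same libraries. Ucp1 had 563 counts in sham and 2 after ozone, and its adjusted p of 0.0469 was 0.33 without sham replicate 2, and 0.0529 to 0.132 without sham replicate 1 or any ozone library.

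**Figure D1:**
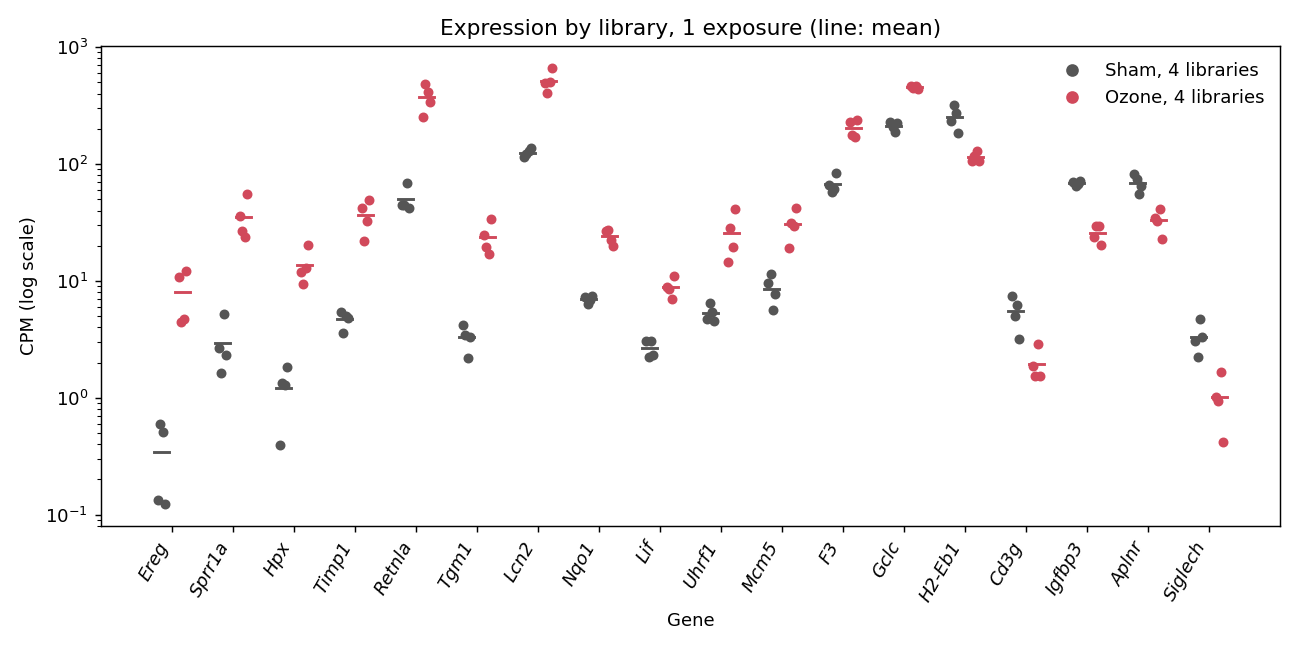
CPM on a log axis for 18 genes in the 4 sham libraries (grey) and the 4 ozone libraries (red) after 1 exposure, with the group mean as a line. The 13 genes on the left are higher and the 5 on the right lower in all ozone libraries than in any sham library.

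Several genes that rose far had few counts in sham lungs. Gsta1 (ENSMUSG00000074183, chromosome 9, 78230656 to 78242684), a glutathione transferase whose sequence is close to that of Gsta2 so that reads may be divided between them, had 3 counts in sham and 378 after ozone, 133 times as many per library total, with a 95% interval (exact Clopper-Pearson) of 45.1 to 646. Orm2, the acute phase plasma protein orosomucoid, had no count in sham and 42 after ozone, at least 14.7-fold higher when 3 counts are taken as the upper limit for the 4 sham libraries. The interleukin 10 family cytokine gene Il24, picked out after its values were seen, likewise had no sham count and 39 after ozone, at least 13.7-fold higher. Intervals and floors cover counting error only. Every ozone library held several counts of each of these 3 genes. Hpx (ENSMUSG00000030895, chromosome 7, 105591613 to 105600137), which encodes the plasma heme scavenger hemopexin, stood at 0.397, 1.33, 1.28 and 1.84 CPM in sham and 11.8, 9.44, 13 and 20.3 CPM after ozone, a log2 fold change of 3.46 ± 0.31 (adjusted p = 6.87e-08). Tgm1, the transglutaminase that crosslinks the cornified envelope, went from 4.23, 3.41, 2.18 and 3.31 to 24.5, 19.4, 17 and 34.0 CPM (2.85 ± 0.24, adjusted p = 2.95e-08). The groups were apart in both genes, with ozone replicate 4 the highest library. The serine protease gene Prss22 (4.40 ± 0.55) and Cldn2, a claudin that forms cation-selective pores (2.90 ± 0.45), were also among the 15 largest rises, with adjusted p of 8.13e-06 and 0.000127.

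Retnla, Ctps and Esd are among the genes with the 10 smallest p-values, and in each of them every ozone library lay above every sham library. Retnla (ENSMUSG00000061100, chromosome 16, 48842551 to 48844461), a secreted protein of alternatively activated macrophages and airway epithelium, stood at 44.8, 44.5, 68.2 and 42.1 CPM in sham and 254, 488, 410.1 and 338 CPM after ozone (2.90 ± 0.20, adjusted p = 2.91e-09). Ctps, which makes the nucleotide CTP, rose from 40.6, 40.4, 38.2 and 42.2 to 93.5, 88.6, 92.8 and 103 CPM (1.23 ± 0.11, adjusted p = 1.22e-07). The sham libraries of Ctps lay close together and far below the ozone libraries. Esd, an esterase that completes the glutathione-dependent removal of formaldehyde, rose from 64.2, 65.1, 70.6 and 72.3 to 186, 154, 151 and 203 CPM (1.35 ± 0.13, adjusted p = 1.57e-07).

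Part of the antioxidant genes rose. Of 16 genes of glutathione synthesis, recycling and peroxidases 5 rose and none fell (median 0.16), of 22 glutathione transferases 5 rose and 2 fell (median -0.12), and of 32 thioredoxin, quinone and heme genes 10 rose and 3 fell (median 0.09). Among 11 genes of the pentose phosphate pathway and NADPH supply 2 rose (18.18%, beside 6.81% of all genes tested). Counts of falls were small and moved: 1 transferase fell without ozone replicate 4 or sham replicate 3, 1 thioredoxin list gene without ozone replicate 4 or sham replicate 2 or 3, and 1 pentose phosphate gene rose without sham replicate 4. Gclc (ENSMUSG00000032350, chromosome 9, 77754535 to 77794485), which encodes the catalytic part of the enzyme that limits the making of glutathione, went from 231, 207, 189.5 and 225 CPM to 462, 448, 465 and 438 CPM (1.09 ± 0.11, adjusted p = 7.64e-07). Its regulatory subunit gene Gclm went from 59.7, 55.2, 51.1 and 61.4 to 80.5, 75.3, 71.3 and 72.3 CPM (0.40 ± 0.11, adjusted p = 0.017). All ozone libraries lay above all sham libraries for both subunits. The adjusted p of Gclm was 0.0522 without ozone replicate 1 and 0.0685 without sham replicate 3. Slc7a11, the cystine importer, stood at 3.57, 1.93, 2.31 and 2.82 CPM in sham and 10.3, 9.32, 6.37 and 7.43 CPM after ozone (1.64 ± 0.36, adjusted p = 0.00337). The epithelial glutathione peroxidase gene Gpx2 (1.13 ± 0.18), the glutaredoxin gene Glrx (0.76 ± 0.13) and Prdx6, a peroxiredoxin that also handles surfactant phospholipid (0.59 ± 0.12), rose, with adjusted p of 0.00021, 0.000244 and 0.00234.

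Among detoxifying enzymes the direction differed by gene. Nqo1, the quinone reductase used as a marker of NRF2 activity, stood at 7.28, 6.38, 6.92 and 7.36 CPM in sham and 26.8, 27.3, 22.4 and 20.04 CPM after ozone (1.78 ± 0.28, adjusted p = 0.000177). Akr1b8, an aldose reductase type enzyme, rose by 1.23 ± 0.17, Srxn1, which repairs oxidised peroxiredoxins, by 0.75 ± 0.15, and Txnrd1, the cytosolic thioredoxin reductase, by 0.67 ± 0.11, with adjusted p of 2.91e-05, 0.00133 and 0.000205. The microsomal transferase gene Mgst3 (0.87 ± 0.14) and Gsta3 (0.68 ± 0.13) rose (adjusted p = 0.00013 and 0.000754), whereas Gstm2 fell from 131, 117, 157 and 130.2 to 97.0, 103, 95.6 and 89.1 CPM (-0.48 ± 0.09, adjusted p = 0.000632). Ephx1, the microsomal epoxide hydrolase, fell as well, from 204, 187, 223 and 193 to 127, 156, 145 and 112 CPM (-0.58 ± 0.10, adjusted p = 0.00037). In both genes no ozone library reached the sham range. G6pdx, the entry enzyme of the pentose phosphate pathway, rose by 0.70 ± 0.11 (adjusted p = 0.000217), and the gene of NRF2 itself, Nfe2l2, by 0.35 ± 0.08 (adjusted p = 0.00574). The heme oxygenase gene Hmox1, often taken as an oxidant marker, did not pass, at 36.5, 39.2, 37.0 and 33.2 CPM in sham and 44.2, 39.9, 45.2 and 43.4 CPM after ozone (0.24 ± 0.09, adjusted p = 0.0764).

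Promoter letters are shown for 3 of these risers whose window holds the core of the antioxidant response element, TGACNNNGC on either strand, here in capitals. Windows of 250 bases before to 50 after a start, from RefSeq on GRCm38.p6, were found for 11331 of the tested genes, and the stretches below are 60 bases upstream of the start.
Gclm chr3:122245397-122245456 (plus strand): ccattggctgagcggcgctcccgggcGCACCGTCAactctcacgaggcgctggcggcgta
Gsta3 chr1:21240438-21240497 (plus strand): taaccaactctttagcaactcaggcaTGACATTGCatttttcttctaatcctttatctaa
Txnrd1 chr10:82859088-82859147 (plus strand): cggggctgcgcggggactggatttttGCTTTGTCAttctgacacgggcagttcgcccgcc
The core begins at -134, -121 and -92 relative to the start in these genes. It occurred in the windows of 7 of 20 risers of the 4 antioxidant lists (35.0%), which are G6pdx, Gclm, Gsta3, Nfe2l2, Pgd, Srxn1 and Txnrd1, and of 16.95% of all genes with a window. The same core was found in 19.15% of the genes that rose and 17.81% of those that fell. In the whole lists it was in 2 of 13 glutathione synthesis genes, 4 of 20 transferases, 5 of 27 thioredoxin list genes and 3 of 10 pentose phosphate genes. It was not particular to antioxidant genes, with 7 of 20 in the AP-1 and immediate early list (35.0%).

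Genes of metal and heme handling rose in part. Of 9 metallothionein and zinc transport genes 4 rose and of 18 iron and heme genes 6 rose and 1 fell, with no fall without ozone replicate 4. Mt2, which encodes a cysteine-rich protein that binds zinc and copper, stood at 11.4, 17.5, 14.3 and 14.5 CPM in sham and 89.9, 33.0, 36.1 and 65.7 CPM after ozone (1.96 ± 0.29, adjusted p = 0.000107). Ozone replicates 1 and 4 were the highest libraries, and replicates 2 and 3 still lay above sham. Mt1 passed narrowly, at 0.66 ± 0.21 (adjusted p = 0.0439), and did not pass when sham replicate 1, 2, 3 or 4 or ozone replicate 1 or 4 was left out, with adjusted p from 0.0618 to 0.178. Slc39a14, a transporter of zinc and iron induced in the acute phase, rose by 0.73 ± 0.15 (adjusted p = 0.00247). The iron side included Lcn2, which binds bacterial iron carriers, at 114, 122, 128 and 137 CPM in sham and 491, 401, 499 and 666 CPM after ozone (2.04 ± 0.22, adjusted p = 2.32e-06). The ferroxidase ceruloplasmin gene Cp rose by 0.81 ± 0.10, the transferrin receptor gene Tfrc by 0.76 ± 0.16, and Fbxl5, which degrades iron regulatory protein, by 0.41 ± 0.09, with adjusted p of 6.42e-06, 0.00271 and 0.00516.

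Most genes of epithelial injury and repair rose. In a list of 22 genes of injured and transitional epithelium 15 rose and 1 fell, with a median of 0.84. Krt8 and Krt19, keratins that rise in alveolar cells passing from type 2 to type 1, both rose. Krt8 stood at 223, 192, 240.0 and 269.5 CPM in sham and 414, 424, 408 and 523 CPM after ozone (0.94 ± 0.13), Krt19 rose by 1.09 ± 0.14 and Krt7 by 0.92 ± 0.12, with adjusted p of 2.91e-05, 7.14e-06 and 1.53e-05. The cell cycle brake 14-3-3 sigma gene Sfn rose from 22.2, 18.7, 22.8 and 22.7 to 56.7, 50.6, 46.9 and 63.6 CPM (1.33 ± 0.16, adjusted p = 6.13e-06). Sprr1a, a cornified envelope precursor, rose from 2.65, 1.63, 5.25 and 2.33 to 36.1, 26.9, 23.7 and 54.9 CPM (3.55 ± 0.40, adjusted p = 6.13e-06). In all of these genes the lowest ozone library stood above the highest sham library. Lgals3, a galactoside-binding lectin of epithelium and macrophages, rose by 0.82 ± 0.13 (adjusted p = 0.000212). The cell cycle inhibitor gene Cdkn1a did not pass (0.54 ± 0.22, adjusted p = 0.12): its levels were 132, 98.3, 127 and 121 CPM in sham and 234, 119, 113 and 232 CPM after ozone, high in replicates 1 and 4 and inside the sham range in replicates 2 and 3, and it passed without ozone replicate 3 (adjusted p = 0.04).

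Junction and ion transport genes changed in part. Of 15 epithelial junction genes 4 rose (26.67%, beside 6.81% of all genes tested). Cldn4, a sealing claudin of the alveolar and airway barrier, went from 6.08, 5.79, 8.97 and 9.2 to 20.6, 15.9, 15.1 and 17.4 CPM (1.19 ± 0.23, adjusted p = 0.00109), and the tight junction plaque gene Cgn rose by 0.61 ± 0.10 (adjusted p = 0.000192). Of 16 genes of fluid and ion transport 4 rose and 1 fell, the fall being lost when ozone replicate 1, 2 or 4 or sham replicate 1, 2 or 4 was left out. The anion exchanger gene Slc26a4 stood at 12.2, 5.34, 7.17 and 4.66 CPM in sham and 15.2, 16.2, 14.8 and 16.4 CPM after ozone (1.09 ± 0.22, adjusted p = 0.00173). The sodium, potassium and chloride cotransporter gene Slc12a2 rose by 0.45 ± 0.09 (adjusted p = 0.00212).

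Some growth factor ligand genes of the EGF family rose. Of 15 genes of this list 4 rose, all of them ligands, and the other 11, which include further ligands and the receptors tested, did not pass, with log2 fold changes from -1.0 to 0.43 and adjusted p of 0.100 or more. The difference between ligands and receptors was not tested. Ereg (ENSMUSG00000029377, chromosome 5, 91074622 to 91093646), epiregulin, stood at 0.132, 0.593, 0.512 and 0.123 CPM in sham and 10.8, 4.48, 4.71 and 12.1 CPM after ozone (4.51 ± 0.55, adjusted p = 6.19e-06). Amphiregulin, Areg, went from 10.2, 7.86, 7.05 and 7.61 to 19.1, 16.1, 15.4 and 18.8 CPM (1.08 ± 0.24, adjusted p = 0.00434). Replicates 1 and 4 were the highest ozone libraries for both. Hbegf, heparin-binding EGF-like growth factor, rose by 0.60 ± 0.11 and the ERBB3 ligand gene Nrg1 by 0.90 ± 0.19, with adjusted p of 0.000471 and 0.00271. Of 28 AP-1 and immediate early genes 8 rose and 1 fell, with 5 rising without sham replicate 3 and 2 falling without sham replicate 4. Fosl1, a FOS family subunit of the transcription factor AP-1, stood at 0.397, 0.148, 0 and 0 CPM in sham, 4 counts in all, and 7.76, 4.6, 1.38 and 4.06 CPM after ozone (adjusted p = 2.91e-05). Ozone replicate 3 was the lowest of its group but held more than any sham library. Myc, which drives ribosome production and entry into the cell cycle, rose from 4.76, 9.94, 8.07 and 6.63 to 22.1, 13, 13.8 and 17.9 CPM (1.18 ± 0.19, adjusted p = 0.000177). Maff rose by 0.64 ± 0.13 and Phlda1 by 0.85 ± 0.19 (adjusted p = 0.00162 and 0.00435), and Jund, an AP-1 subunit of resting cells, fell from 228, 233, 249.8 and 208 to 169, 164, 185 and 167 CPM (-0.42 ± 0.10, adjusted p = 0.00616).

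**Figure D2:**
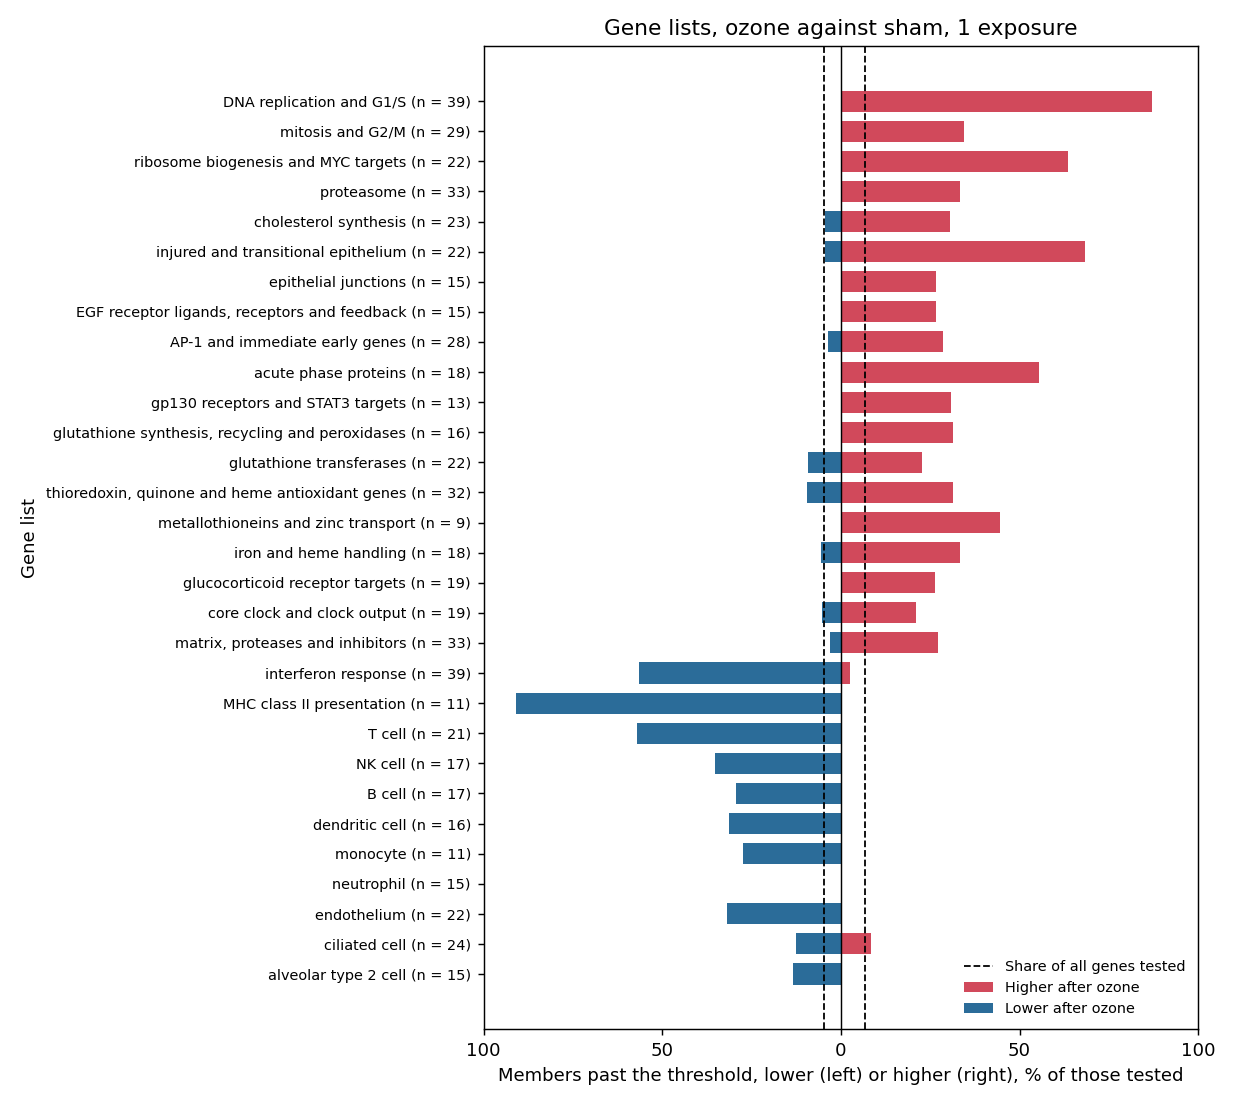
Share of the tested members of 30 gene lists that passed the threshold and were higher (red, right) or lower (blue, left) after 1 exposure to ozone than in sham. Dashed lines mark the share of all genes tested, 6.81% higher and 4.63% lower. DNA replication genes reach furthest to the right and MHC class II genes furthest to the left.

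Among secreted signals, 2 of 13 tested cytokine genes rose (15.38%, beside 6.81% of all genes tested). Lif, an interleukin 6 type cytokine, went from 3.04, 2.23, 3.08 and 2.33 to 8.94, 8.5, 7.06 and 11.1 CPM (1.73 ± 0.23, adjusted p = 1.92e-05). Il33, an alarmin stored in nuclei of alveolar type 2 cells in mice, went from 131, 149, 98.3 and 126 to 225, 259, 323 and 290.5 CPM (1.12 ± 0.17, adjusted p = 8.57e-05). Every ozone library exceeded every sham library in both. Il6 was too low to test, with 3 counts in sham and 26 after ozone, as were the chemokine genes Cxcl1 (25 and 20 counts), Cxcl2 (7 and 13) and Ccl20 (7 and 4). Of 13 receptors and targets of gp130 and STAT3 4 rose. Socs3, the feedback inhibitor of this pathway, stood at 47.9, 46.9, 35.4 and 36.9 CPM in sham and 117, 102, 96.6 and 96.5 CPM after ozone (1.30 ± 0.15, adjusted p = 4.64e-06). The oncostatin M receptor gene Osmr rose by 0.77 ± 0.11 and the NF-kB cofactor gene Bcl3 by 0.61 ± 0.15, with adjusted p of 4.49e-05 and 0.00871.

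Acute phase proteins, secreted in bulk by the liver but also made by airway epithelium, rose in 10 of 18 genes with a median of 1.20 and none fell. Besides Hpx, Orm2 and Lcn2, these include Saa3, the serum amyloid A of extrahepatic tissue, at 8.07, 5.93, 7.69 and 7.49 CPM in sham and 30.03, 20.5, 19.8 and 25.2 CPM after ozone (1.70 ± 0.36, adjusted p = 0.0035). Serpina3n, a protease inhibitor, stood at 75.5, 63.8, 66.5 and 77.1 CPM in sham and 240.2, 135, 155 and 293 CPM after ozone (1.54 ± 0.25, adjusted p = 0.000309). Its ozone libraries 1 and 4 were the high ones and none overlapped sham. Lrg1, a leucine-rich glycoprotein of blood vessels and plasma, rose by 1.24 ± 0.21 (adjusted p = 0.000309).

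CC chemokine genes passed in both directions. Of 15 CC chemokine genes 3 rose and 3 fell, and 1 fell when ozone replicate 1 or 2 or sham replicate 1 or 3 was left out. Ccl17, a ligand of CCR4 on T helper 2 and regulatory T cells, went from 3.84, 2.37, 2.82 and 3.44 to 18.9, 11.9, 9.41 and 8.83 CPM (1.96 ± 0.24, adjusted p = 6.19e-06). Ccl22, the other ligand of that receptor, rose by 1.41 ± 0.21 (adjusted p = 8.61e-05). Ozone replicates 1 and 2 were the highest libraries of both genes and no library of the groups overlapped. The monocyte attractant gene Ccl7 rose by 2.13 ± 0.51 (adjusted p = 0.00664) from a low level of 0.132, 0.593, 0.384 and 0.245 CPM, whereas Ccl2, which acts on the same receptor, stood at 0.529, 1.33, 0.641 and 0.614 CPM in sham and 2.19, 1.53, 2.08 and 2.52 CPM after ozone and did not pass (1.41 ± 0.49, adjusted p = 0.0606), except without sham replicate 2 (0.0385). Ccl5, made by T and NK cells, fell from 12.2, 16.5, 11.9 and 11.2 to 7.59, 5.9, 5.54 and 6.87 CPM (-1.0 ± 0.16, adjusted p = 0.000186). Of 10 CXC and CX3C genes only Cxcl17, a mucosal chemokine, rose (0.99 ± 0.19, adjusted p = 0.000983), and the neutrophil attractant gene Cxcl5 was at 1.80 ± 0.63 (adjusted p = 0.0639). The share of this list that rose was 10.0%, beside 6.81% of all genes tested. Ccl2 and Cxcl5 passed in DESeq2 (adjusted p = 0.0306 and 0.0373) and limma-voom (0.0392 and 0.0389). Beyond chemokines, the lipopolysaccharide co-receptor gene Cd14 rose by 0.84 ± 0.16 (adjusted p = 0.0012). Il4ra, a chain of the receptors for interleukins 4 and 13, rose by 0.77 ± 0.17 (adjusted p = 0.00411).

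Genes of DNA replication rose nearly as a whole. Of 39 genes of replication and the passage from G1 to S phase 34 rose and none fell, with a median of 1.05, and 29 rose without ozone replicate 4. The 5 that did not pass were Orc6, E2f1, E2f2, Slbp and Dut, named here after their values were seen. Of 29 mitosis genes 10 rose and none fell, with a median of 0.67. In 4 of the 29 the groups did not overlap, beside 21.2% of all genes tested. The mitosis count that rose was 3 without ozone replicate 4 and 6 without both libraries numbered 2. Without ozone replicate 1, 1 mitosis gene fell. The mean log2 CPM over the replication list ran from 2.78 to 3.02 in sham and was 3.52, 4.01, 3.82 and 4.41 in ozone replicates 1 to 4. Over the mitosis list it ran from 1.92 to 2.32 in sham and was 2.13, 2.87, 2.61 and 3.36 after ozone. Ozone replicate 1 thus lay above sham in replication genes and inside the sham range in mitosis genes, and ozone replicate 4 was the highest library in both.

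Uhrf1, which copies DNA methylation onto new strands, stood at 4.76, 6.53, 5.38 and 4.54 CPM in sham and 14.5, 28.4, 19.5 and 41.1 CPM after ozone (2.30 ± 0.27, adjusted p = 7.14e-06). Mcm5 (ENSMUSG00000005410, chromosome 8, 75109569 to 75128439), a subunit of the replicative helicase, went from 9.52, 11.4, 5.64 and 7.73 to 19.2, 31.4, 29.8 and 41.8 CPM (1.84 ± 0.23, adjusted p = 1.03e-05). The spread among ozone libraries was wide in both genes, and replicate 1 was the lowest but above all sham libraries. The helicase subunit genes Mcm3, Mcm6 and Mcm7 rose by 1.05 ± 0.15, 1.05 ± 0.14 and 1.02 ± 0.12, with adjusted p of 2.99e-05, 1.98e-05 and 2.49e-06. Cdc6, which loads the helicase, rose by 2.15 ± 0.34 and Ccne2, cyclin E2 of the G1 to S passage, by 1.84 ± 0.26, with adjusted p of 0.000131 and 3.36e-05. Among mitosis genes Ect2, which places the cleavage furrow, went from 4.76, 4.45, 4.48 and 4.79 to 8.44, 14.2, 11.2 and 19.8 CPM (1.54 ± 0.22, adjusted p = 3.36e-05). Cdk1, the mitotic kinase, went from 4.76, 4.3, 3.46 and 2.58 to 6.58, 10.6, 7.75 and 14.2 CPM (1.39 ± 0.28, adjusted p = 0.00165). The proliferation marker gene Mki67 stood at 17.7, 18.8, 13.6 and 16.8 CPM in sham and 22.3, 35.8, 30.3 and 65.0 CPM after ozone (1.20 ± 0.30, adjusted p = 0.0116), and did not pass without ozone replicate 4 (adjusted p = 0.0813).

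E2F factors are the textbook regulators of replication genes, and promoter stretches of 4 risers are shown for that reason. Capitals mark the E2F letters TTTCCCGC, TTTGGCGC, TTTCGCGC or TTTGCCGC on either strand, in 60 bases upstream of the start on GRCm38.p6 from RefSeq.
Cdc6 chr11:98907987-98908046 (plus strand): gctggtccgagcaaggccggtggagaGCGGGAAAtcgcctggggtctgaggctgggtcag
Mcm5 chr8:75109334-75109393 (plus strand): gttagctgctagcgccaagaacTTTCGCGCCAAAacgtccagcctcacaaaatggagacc
Mcm6 chr1:128359719-128359778 (minus strand): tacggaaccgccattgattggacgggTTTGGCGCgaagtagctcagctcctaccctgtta
Uhrf1 chr17:56304102-56304161 (plus strand): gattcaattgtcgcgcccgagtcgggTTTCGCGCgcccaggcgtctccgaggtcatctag
In Mcm5 the capitals are 2 matches that overlap on opposite strands. These letters occurred in the windows of 11 of the 27 replication genes that rose and had a window (40.74%). In the whole replication list, whether or not a gene rose, the share was similar, with 12 of 32 (37.5%). The letters were in 1 of 23 mitosis genes and in 4.36% of all genes with a window. They were in 8.76% of all genes that rose (70 of 799) and 1.42% of those that fell (7 of 494).

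**Figure D3:**
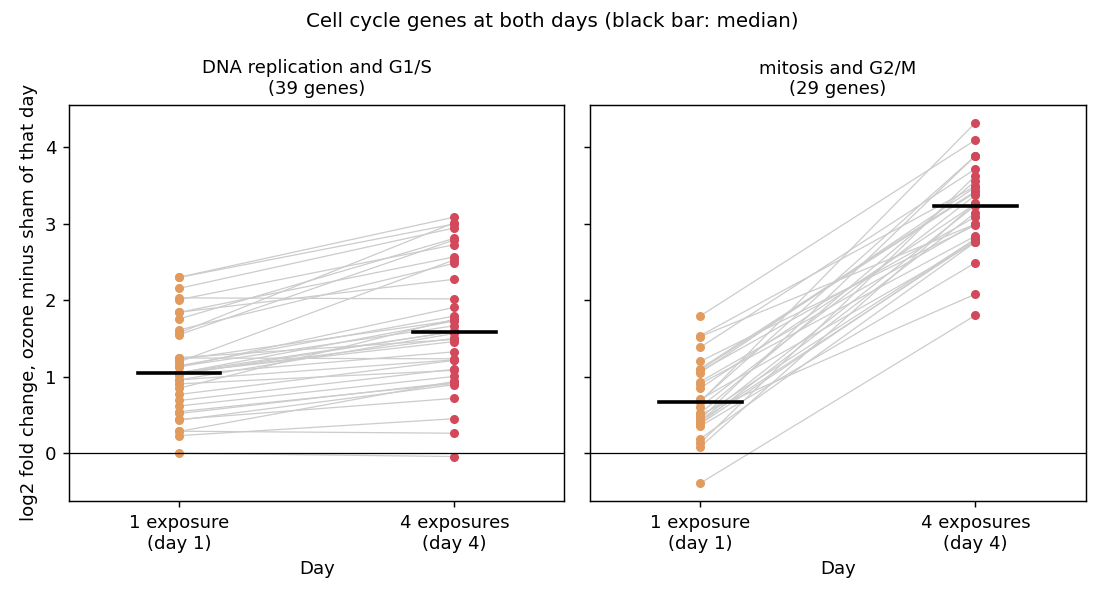
Log2 fold change of ozone minus sham of the same day for 39 DNA replication genes (left) and 29 mitosis genes (right), after 1 exposure at day 1 and 4 exposures at day 4, with lines joining a gene and bars at the median. The replication median is 1.05 at day 1 and 1.59 at day 4, and the mitosis median 0.67 and 3.23.

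Genes of ribosome assembly, amino acid supply and protein turnover rose in part. Of 22 genes of ribosome biogenesis and MYC targets 14 rose, with a median of 0.48, and 9 rose without ozone replicate 4. Srm, spermidine synthase, went from 12.4, 12.5, 12.0 and 13.9 to 24.0, 21.8, 22.8 and 27.8 CPM (0.92 ± 0.12, adjusted p = 1.73e-05). The nucleolar protein genes Gnl3 and Rrp12 rose by 0.62 ± 0.10 and 0.72 ± 0.14, with adjusted p of 0.000122 and 0.00126. Psat1 of serine synthesis went from 14.6, 12.8, 12.2 and 14.8 to 37.0, 32.5, 28.9 and 48.4 CPM (1.43 ± 0.15, adjusted p = 1.34e-06), and Mthfd2 of the mitochondrial folate cycle rose by 0.87 ± 0.16 (adjusted p = 0.000787). They belong to a list of 25 ATF4 and amino acid response genes in which 4 rose (16.0%, beside 6.81% of all genes tested). Of 33 proteasome genes 11 rose, with a small median of 0.22. In 21 of them the groups did not overlap, beside 21.2% of all genes tested. The count that rose was 5 without ozone replicate 4, 6 without both libraries numbered 2 and 7 without sham replicate 1, 2 or 4. The subunit gene Psmd14 went from 51.1, 46.1, 50.1 and 49.5 to 70.2, 65.2, 66.0 and 73.8 CPM (0.48 ± 0.08, adjusted p = 0.000373) and Psmd1 rose by 0.38 ± 0.08 (adjusted p = 0.00212).

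Of 23 cholesterol synthesis genes 7 rose and 1 fell, against 3 that rose without ozone replicate 4 and 4 without sham replicate 3. Sqle, squalene epoxidase, stood at 56.2, 57.5, 55.7 and 59.9 CPM in sham and 79.8, 80.0, 85.1 and 103 CPM after ozone (0.60 ± 0.11, adjusted p = 0.000798), and Lss, the next enzyme of the pathway, rose by 0.65 ± 0.12 (adjusted p = 0.00086). The member that fell was Insig1, which holds back the sterol-sensing transcription factors, at -0.41 ± 0.10 (adjusted p = 0.00783).

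Some stress hormone and clock genes passed, with unequal replicates. Of 19 glucocorticoid receptor targets 5 rose and none fell, with a median of 0.13. The risers include Mt2 and Mt1, both also counted in the metallothionein list, of which Mt1 passed narrowly. The count that rose was 2 without ozone replicate 4, sham replicate 1 or sham replicate 2, and 3 without ozone replicate 1 or sham replicate 3. Fkbp5, a chaperone of the receptor and its sensitive target, stood at 23.9, 39.5, 24.9 and 48.5 CPM in sham and 107, 81.4, 77.1 and 143 CPM after ozone (1.58 ± 0.27, adjusted p = 0.000587). Zbtb16, a transcription factor gene with the same induction, stood at 13.1, 24.0, 31.5 and 45.8 CPM in sham and 98.0, 78.1, 78.5 and 216 CPM after ozone (2.03 ± 0.56, adjusted p = 0.0206). It did not pass without ozone replicate 4 (adjusted p = 0.109), sham replicate 1 (0.0686) or sham replicate 2 (0.057). The groups did not overlap in either gene, although the sham libraries of Zbtb16 were themselves far apart. Of 19 clock genes 4 rose and 1 fell. Per2, a repressor of the clock, went from 21.6, 25.4, 28.4 and 45.1 to 72.5, 71.3, 59.1 and 47.4 CPM (1.05 ± 0.20, adjusted p = 0.00112), and its partner Cry1 from 10.3, 11.9, 9.87 and 10.6 to 29.0, 18.6, 17.4 and 21.6 CPM (1.02 ± 0.18, adjusted p = 0.000395). Nr1d1, the nuclear receptor that represses the opposite arm, was at 126, 176, 210.4 and 228 CPM in sham and 65.6, 127, 139.5 and 73.2 CPM after ozone (-0.86 ± 0.25, adjusted p = 0.0276). Its groups overlapped, and it did not pass without ozone replicate 1 (0.0888) or 4 (0.113) or sham replicate 3 (0.0771) or 4 (0.0792). Per1 was at 0.11 ± 0.16 (adjusted p = 0.71) and the output gene Dbp at -0.98 ± 0.39 (adjusted p = 0.11), neither of which passed. Ozone replicates 1 and 4 were low for Nr1d1 and Dbp and high for Mt2, Cdkn1a and Serpina3n. The labels do not record the hour at which each lung was taken, and its part in these genes was not tested.

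**Figure D4:**
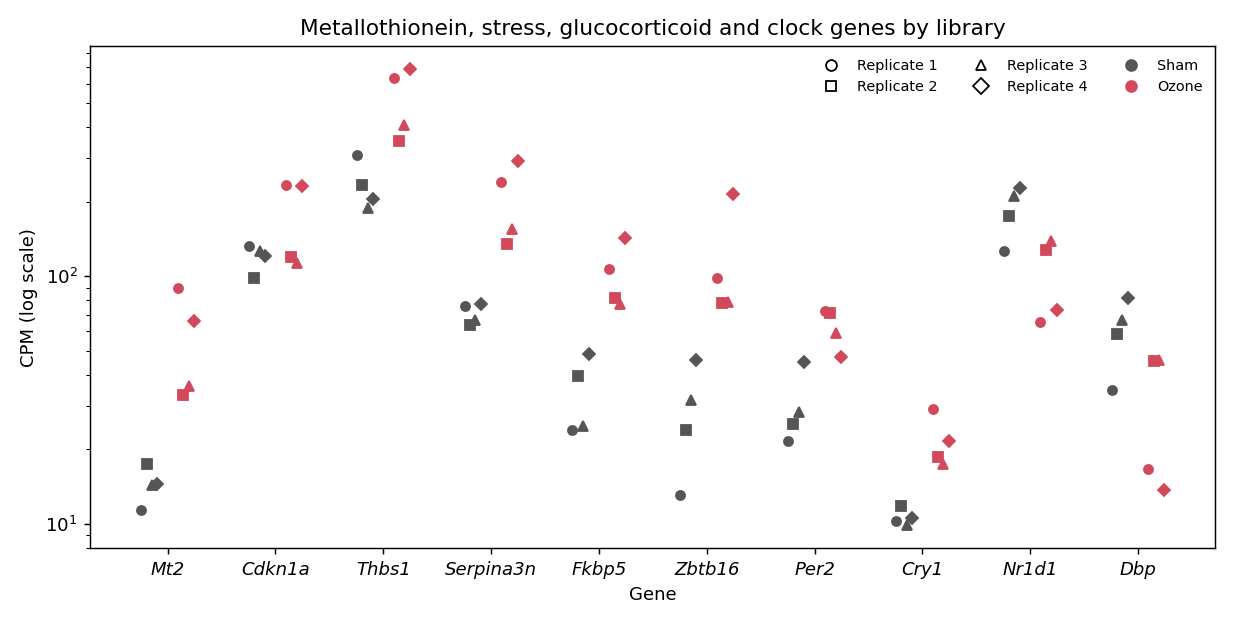
CPM on a log axis for 10 metallothionein, stress, glucocorticoid and clock genes in the 4 sham (grey) and 4 ozone libraries (red), with a marker shape for each replicate. Ozone replicates 1 and 4 stand above replicates 2 and 3 for Mt2, Cdkn1a, Thbs1, Serpina3n, Fkbp5 and Cry1, and below them for Nr1d1 and Dbp.

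Coagulation and matrix genes rose in part. F3 (ENSMUSG00000028128, chromosome 3, 121723537 to 121735048), tissue factor, the cell surface trigger of clotting, stood at 66.0, 58.1, 60.7 and 83.3 CPM in sham and 227, 177, 171 and 239 CPM after ozone (1.6 ± 0.15, adjusted p = 1.57e-07). It is 1 of the 4 risers among 17 coagulation and fibrinolysis genes, a count that was 2 without ozone replicate 1 or 4 or sham replicate 3 or 4. Of 33 matrix, protease and inhibitor genes 9 rose and 1 fell. Timp1, an inhibitor of matrix metalloproteinases, went from 5.42, 3.56, 5.0 and 4.79 to 41.8, 22.1, 32.2 and 48.9 CPM (2.93 ± 0.28, adjusted p = 3.18e-07). Tnc, tenascin C of provisional matrix, went from 28.3, 19.0, 28.8 and 29.0 to 82.7, 57.7, 79.7 and 120.1 CPM (1.69 ± 0.31, adjusted p = 0.000983). Ozone libraries stood above sham in each of these, and ozone replicate 2 was the lowest of its group for Timp1 and Tnc. Thbs1 (1.15 ± 0.25), an activator of latent TGF-beta, the aggrecan-cleaving protease gene Adamts4 (2.77 ± 0.48) and osteopontin, Spp1 (0.97 ± 0.23), rose too, with adjusted p of 0.00358, 0.000374 and 0.00744. Of 23 genes of prostaglandin and leukotriene metabolism only Ptgs1, the constitutive cyclooxygenase, rose, from 74.3, 82.0, 65.8 and 89.1 to 149.8, 131, 159.5 and 163 CPM (0.95 ± 0.11, adjusted p = 3.79e-06). The share of this list that rose was 4.35%, beside 6.81% of all genes tested.

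Genes of antigen presentation and part of the lymphocyte genes fell. In whole lung, fewer cells of a type and less RNA per cell cannot be told apart. Of 11 genes of MHC class II presentation 10 fell, with a median of -0.96. H2-Aa, a class II chain, stood at 366, 464, 412 and 301 CPM in sham and 172, 196, 218 and 177 CPM after ozone (-1.02 ± 0.16, adjusted p = 0.000138). H2-Eb1 went from 233, 319.8, 274 and 185 to 107, 117, 128 and 106 CPM (-1.14 ± 0.18, adjusted p = 0.000158) and the invariant chain gene Cd74 from 1039, 1310.5, 1192 and 846 to 510.5, 548, 665 and 537 CPM (-0.96 ± 0.16, adjusted p = 0.000261). Sham libraries were ordered alike in all 3 genes, with replicate 2 highest and replicate 4 lowest, and the lowest sham library exceeded every ozone library. Without ozone replicate 4 or sham replicate 2, 7 of the 11 fell.

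Of 21 T cell genes 12 fell (median -0.95), of 17 NK cell genes 6 fell (median -0.82) and of 17 B cell genes 5 fell (median -0.92), and none rose. Cd3g of the T cell receptor complex went from 7.41, 5.04, 6.28 and 3.19 to 1.86, 1.53, 2.91 and 1.54 CPM (-1.48 ± 0.28, adjusted p = 0.000798). Gzma, a granzyme of NK and cytotoxic T cells, went from 14.0, 19.0, 16.1 and 11.8 to 6.24, 6.96, 8.03 and 7.01 CPM (-1.10 ± 0.24, adjusted p = 0.00287). Groups were apart in both genes. The surface sialoprotein gene Spn of leukocytes changed by -0.86 ± 0.18, the G protein-coupled receptor gene Gpr171 by -1.71 ± 0.29 and Siglech, a marker of plasmacytoid dendritic cells, by -1.71 ± 0.33, with adjusted p of 0.0028, 0.000303 and 0.000964. The T cell count was 8 without ozone replicate 4 or sham replicate 3. The NK cell count was 2 without ozone replicate 4 and 3 without ozone replicate 2 or sham replicate 2. The B cell count was 0 without ozone replicate 4 or sham replicate 2, 2 and 3 without ozone replicates 2 and 1, and 10 without sham replicate 4. Of 16 dendritic cell genes 5 fell, but 1 without sham replicate 2, 2 without ozone replicate 4 and 3 without ozone replicate 1 or sham replicate 3. Of 11 monocyte genes 3 fell, but 1 without ozone replicate 2 or 4. Without both libraries numbered 2, which stood apart in muscle genes, the counts that fell were 5 for T cells, 1 for NK cells, 0 for B cells, 1 for dendritic cells and 1 for monocytes.

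**Figure D5:**
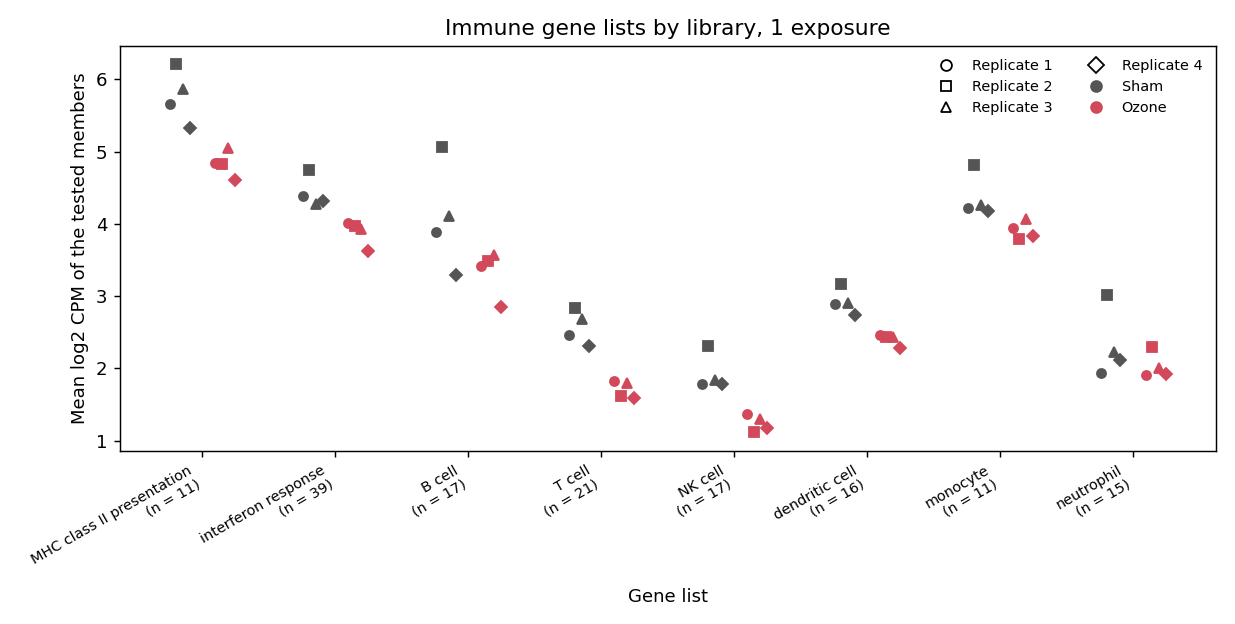
Mean log2 CPM over the tested members of 8 immune gene lists in each sham (grey) and ozone (red) library, with a marker shape for each replicate. Sham replicate 2 is the highest sham library in all 8 lists, and ozone libraries lie below all sham libraries in the MHC class II, interferon, T cell, NK cell, dendritic cell and monocyte lists but not in the B cell and neutrophil lists.

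Interferon response genes fell in 22 of 39 cases and 1 rose, with a median of -0.62. The count that fell was 10 without ozone replicate 4 and 10 without both libraries numbered 2 and 11 without sham replicate 2, the library with the highest immune, muscle and adipose levels. Gbp3, a guanylate-binding GTPase, went from 37.8, 38.7, 30.4 and 34.5 to 17, 19.2, 17.7 and 12.6 CPM (-1.08 ± 0.18, adjusted p = 0.000309), and the immunoproteasome gene Psmb9 from 26.9, 34.3, 28.1 and 24.4 to 17, 16.4, 19.2 and 13.9 CPM (-0.77 ± 0.15, adjusted p = 0.00112). The member that rose was Ifit3, at 52.4, 57.7, 50.7 and 60.1 CPM in sham and 94.8, 83.7, 92.4 and 69.1 CPM after ozone (0.62 ± 0.14, adjusted p = 0.00349), whose reads may be shared with the near-identical Ifit3b. For these genes the groups did not overlap.

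No neutrophil gene passed in the model of all groups. Of 15 tested none passed in edgeR, DESeq2 or limma-voom and 1 had an unadjusted p under 0.05, with a median of -0.75, and their mean log2 CPM ran from 1.94 to 3.02 in sham and from 1.91 to 2.30 after ozone. S100a8, a calcium-binding protein of neutrophil cytosol, stood at 6.88, 57.1, 15.1 and 19.0 CPM in sham and 7.59, 10.3, 10.5 and 6.31 CPM after ozone (-1.47 ± 0.86, adjusted p = 0.296). Csf3r, the receptor for the granulocyte growth factor, was at 8.73, 42.3, 15.1 and 13 and 9.79, 9.32, 9.41 and 6.87 CPM (-1.15 ± 0.55, adjusted p = 0.197). Sham replicate 2 was the highest library for both.

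Some markers of alveolar and club cells passed. Of 15 alveolar type 2 genes 2 fell (13.33%), while the median was 0.10 and 10 of the 15 had a positive log2 fold change. Of 13 alveolar type 1 genes 1 fell (7.69%), with a median of -0.04, and none fell without sham replicate 4. Of all genes tested 4.63% fell, and 11.4% passed in either direction. Of 17 club cell genes 3 rose and 1 fell (23.53%, against 11.4% of all genes), with 2 falling without ozone or sham replicate 2. Lyz2, lysozyme of type 2 cells and macrophages, went from 7218, 7085, 6879.6 and 8441 to 4020.2, 5071, 5757 and 5461 CPM (-0.54 ± 0.13, adjusted p = 0.00664), and Lyz1, a close copy, from 505, 400.5, 440.1 and 569.6 to 182, 257, 291 and 268 CPM (-0.94 ± 0.19, adjusted p = 0.00145). Reads may be divided between these copies. The surfactant protein C gene Sftpc was at -0.39 ± 0.12 (adjusted p = 0.0412) and did not pass when any of the 8 libraries but sham replicate 2 was left out, with adjusted p from 0.0503 to 0.104. Ager, a membrane receptor of type 1 cells, was at -0.13 ± 0.09 (adjusted p = 0.406). In the airway, Cyp2f2, the club cell cytochrome that bioactivates naphthalene, went from 3198, 3174, 4098 and 3420.1 to 1868, 2891, 2128 and 1924 CPM (-0.66 ± 0.16, adjusted p = 0.00748), while the club cell secretory protein gene Scgb1a1 did not pass (-0.10 ± 0.21, adjusted p = 0.826). Gabrp rose by 0.68 ± 0.12 and the membrane mucin gene Muc4 by 0.94 ± 0.16, with adjusted p of 0.000539 and 0.000232, and the goblet cell mucin gene Muc5ac was at 0.52 ± 0.28 (adjusted p = 0.246).

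Ciliated cell genes passed in both directions. Of 24 tested 3 fell and 2 rose (20.83%, beside 11.4% of all genes tested), and 5 fell without sham replicate 2 or ozone replicate 2. Tppp3, a tubulin-binding protein of motile cilia, went from 293, 290.3, 372 and 392 to 146, 215, 201 and 137 CPM (-0.95 ± 0.17, adjusted p = 0.000442), and Hydin, of the central pair of the axoneme, from 34.3, 30.1, 42.7 and 36.6 to 12.0, 24.3, 21.3 and 24.0 CPM (-0.81 ± 0.18, adjusted p = 0.00475). Gmnc, which starts the ciliated cell programme in precursors, went the other way, from 7.28, 5.64, 6.28 and 7.12 to 10.6, 16.3, 14.0 and 14.0 CPM (1.06 ± 0.19, adjusted p = 0.000601). The 2 risers were Gmnc and Ccno, also an early gene of that programme, and 1 rose without ozone replicate 2 or sham replicate 1. Foxj1, the regulator of motile cilia, was at -0.12 ± 0.21 (adjusted p = 0.788).

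Endothelial genes fell in 7 of 22 cases and none rose, with a median of -0.20, and 4 fell without ozone replicate 2 or 4 or sham replicate 1 or 3, and 2 without both libraries numbered 2. Aplnr, the apelin receptor of capillary cells, went from 81.5, 73.9, 55.9 and 65.3 to 34.6, 32.8, 41.4 and 22.7 CPM (-1.07 ± 0.19, adjusted p = 0.000672), and its ligand gene Apln from 69.3, 40.8, 55.6 and 39.5 to 17.4, 27.4, 32.8 and 22.4 CPM (-1.03 ± 0.25, adjusted p = 0.00882). Cldn5, the claudin of endothelial junctions, changed by -0.72 ± 0.15 (adjusted p = 0.00198). For the receptor and the ligand no ozone library reached a sham library. Among other falls, Igfbp3, which binds insulin-like growth factors, went from 69.8, 65.1, 67.6 and 71.2 to 23.8, 29.7, 29.2 and 20.5 CPM (-1.40 ± 0.21, adjusted p = 0.000131). Fabp5, a fatty acid carrier, changed by -0.58 ± 0.11 (adjusted p = 0.00126) and the calmodulin-like gene Calml3 by -2.0 ± 0.46 (adjusted p = 0.00627). Cyp1a1, the enzyme induced by the aryl hydrocarbon receptor, was at 40.7, 24.3, 18.6 and 25.4 CPM in sham and 9.11, 5.66, 4.84 and 4.34 CPM after ozone (-2.20 ± 0.63, adjusted p = 0.0271), and did not pass without ozone replicate 2 (0.0651), 3 (0.0639) or 4 (0.0932) or sham replicate 1 (0.0783). Of 6 targets of this receptor tested 3 rose and 1 fell, with a median of 0.15, and the risers include Nqo1. The count that rose was 1 without ozone replicate 1, without sham replicate 2 and without both libraries numbered 2.

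Against a single exposure to carbon black, 1735 genes passed (11.7%), 837 of them higher after ozone (5.62%) and 898 lower (6.03%). The count was 1076 without ozone replicate 4. This comparison uses the same ozone libraries as that with sham, so the 2 are not independent. Neutrophil genes were far lower: 14 of 15 were lower after ozone, with a median of -4.30, and S100a8 was at 598 ± 583 CPM in the carbon black lungs against 8.67 ± 2.06 CPM in those given ozone (SD, n = 4 each; -6.09 ± 0.88, adjusted p = 0.000106). S100a9, the partner of S100a8, was at -6.21 ± 0.90 (adjusted p = 0.000114). Over the neutrophil list the mean log2 CPM ran from 2.88 to 6.86 among carbon black libraries and from 1.91 to 2.30 after ozone. Monocyte genes were lower in 8 of 11. The replication list was higher after ozone in 32 of 39, the injured epithelium list in 13 of 22 and the acute phase list in 10 of 18. Ereg (4.30 ± 0.53) and Prss22 (4.41 ± 0.55) were among the 5 genes furthest above carbon black, with adjusted p of 6.79e-06 and 6.91e-06. Against carbon black Fkbp5 (0.42 ± 0.26, adjusted p = 0.368), Zbtb16 (0.13 ± 0.52, 0.924), Per2 (0.33 ± 0.20, 0.317), Cry1 (0.35 ± 0.17, 0.22) and G6pdx (0.08 ± 0.11, 0.712) did not pass. T cell genes were lower after ozone in 15 of 21, and in 8 or 9 without carbon black replicate 1 or ozone replicate 2 or 4. Of the MHC class II genes 5 of 11 were lower, a count that ran from 0 without ozone replicate 4 to 8 without carbon black replicate 3, with 2 without ozone replicate 1 or carbon black replicate 1 or 2 and 3 without ozone replicate 2.

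Against a single co-exposure no gene passed in edgeR (0.0%), while 2337 of the 14887 genes tested had an unadjusted p under 0.05. DESeq2 called 23 genes and limma-voom none. The co-exposure libraries held Ereg at 6.27 ± 2.01 CPM, Lcn2 at 550.3 ± 67.8 CPM and Uhrf1 at 28.2 ± 4.52 CPM, beside 8.01 ± 3.98, 514 ± 110.5 and 25.9 ± 11.6 CPM after ozone alone (SD, n = 4 each). For S100a8 the means were 6.06 ± 2.6 CPM after co-exposure and 8.67 ± 2.06 CPM after ozone. The median log2 fold change of ozone over co-exposure was 0.45 in NK cell, 0.43 in monocyte and 0.48 in alveolar macrophage genes. It was -0.26 in glutathione transferases and -0.165 in glutathione synthesis genes. No member of these lists passed, and the lists were picked after their values were seen.

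The change after 1 exposure was set against that after 4 exposures, each relative to sham of its own day, which differ in both day and number of exposures. The difference passed for 631 genes (4.24%), 351 with a higher value at day 4 (2.36%) and 280 with a lower value (1.88%). The count was 365 to 397 without ozone replicate 1 of day 1, ozone replicate 1, 2 or 3 of day 4 or sham replicate 2 of day 4. Mitosis genes had higher values at day 4: 28 of 29 passed, with a median difference of 2.33, and 25 to 28 passed when any library was left out. In the replication list 1 of 39 passed, with a median difference of 0.51, against 4 without ozone replicate 4 of day 1 and 2 without sham replicate 3 of day 4. Cdk1 changed by 1.39 ± 0.28 at day 1 and 3.71 at day 4 (difference 2.33 ± 0.42, adjusted p = 0.00166). Ect2 gave a difference of 1.95 ± 0.33 (adjusted p = 0.000683). Retnla rose further, by 4.56 at day 4 (difference 1.66 ± 0.29, adjusted p = 0.0014). Lysosome and proton pump genes had higher values at day 4 in 7 of 26, with 6 or 7 without each library.

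Several genes that rose at day 1 had lower values at day 4. The day 1 libraries enter the difference between days with the opposite sign, so the 2 are not independent. Genes picked for a large rise at day 1 therefore lean toward a lower difference. Other genes were picked as the extremes of the difference itself. Gsta3 changed by 0.68 ± 0.13 at day 1 and -0.50 at day 4 (difference -1.19 ± 0.19, adjusted p = 0.000521), and Prdx6 by 0.59 ± 0.12 and -0.41 (difference -1.0 ± 0.19, adjusted p = 0.00245). F3 changed by 1.6 ± 0.15 and 0.37 (difference -1.23 ± 0.23, adjusted p = 0.00209). Esd gave a difference of -0.92 ± 0.19 (adjusted p = 0.00531), Gnl3 of -0.69 ± 0.15 (adjusted p = 0.00698) and Per1, which had not passed at day 1, of -1.07 ± 0.24 (adjusted p = 0.0111). Fosl1 at day 4 averaged 0.629 ± 0.206 CPM in sham lungs and 0.521 ± 0.215 CPM in ozone lungs (SD, n = 3 each), and its difference passed at an adjusted p of 0.00455. Gclc and Lcn2 showed no such difference that passed, at -0.08 ± 0.17 (adjusted p = 0.867) and 0.06 ± 0.32 (adjusted p = 0.96). Of the 19 glucocorticoid receptor targets 12 had lower values at day 4, with a median difference of -1.07, a count of 5 without ozone replicate 2 or 3 or sham replicate 2 of day 4, 6 without sham replicate 3 of day 4 and 7 without ozone replicate 1 of day 1.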

How the data were processed

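Poly(A) RNA of whole lung homogenate was sequenced as stranded 51 bp paired-end libraries and quantified with Salmon 1.1.0, per the labels. The submitters' processing notes also name mm10, R 3.6.3 and DESeq2, without a role. The deposited table holds the authors' estimated counts per gene, not normalized, of which 17.7% were not whole; they were rounded here. Salmon divides reads that match several genes by an estimate, so close copies are uncertain. The table was read over all 28 libraries (5135492 to 9718770 counts each), which sets the precision of low genes: 3 counts correspond to 0.358 to 0.507 CPM in the 8 libraries compared. Within each day 1 group no 2 libraries were duplicates, and other pairs were not compared.

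Genes were filtered by filterByExpr, scaled by TMM and tested with edgeR 4.0.16 (R 4.3.3), using the quasi-likelihood test with 1 mean per group over the 8 groups, no covariate, and Benjamini-Hochberg adjustment over 14887 genes. The steps were tested on simulated data. Alternatives used other scalings and filters, only the compared groups, DESeq2 1.42.0, limma-voom (limma 3.58.1), a replicate block and left-out libraries. Gene positions are from GENCODE M21 on GRCm38.

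Genes named are the 15 largest rises and 10 largest falls (at least 1 on the log2 scale, no overlap, at least 2 CPM in the higher group, curated symbol), the 10 smallest p, the 8 most abundant that passed, up to 6 of smallest p in each list, the 5 highest and 5 lowest of each other comparison, and a fixed set; the text gives part of these, and some are not reported here. The lists and genes were chosen with earlier results of these data known.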

Additional observations from a re-analysis of the deposited data

Results flagged for a closer look

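The values below stood out by fixed rules, and no explanation was weighed. Among the genes described, 282 groups of 4 libraries were examined for a library far from the other 3, and 18 were found. Chance alone marks about 1 in 20 groups.

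In sham, replicate 2 stood apart for Acta1 (607 CPM, others at most 1.15), Ucp1 (78.0 CPM, others at most 4.63), Ccl2 (1.33 CPM, others 0.529 to 0.641), Sfn (18.7 CPM, others at least 22.2), Slc12a2 (182 CPM, others at least 207) and Tnc (19.0 CPM, others at least 28.3). Sham replicate 4 was apart for Srxn1 (25.8 CPM, others at least 30.6) and Lgals3 (159 CPM, others at most 137), sham replicate 3 for Retnla (68.2 CPM, others at most 44.8) and sham replicate 1 for Gsta1 (0.397 CPM, others at 0).

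After ozone, replicate 4 stood apart for Zbtb16 (216 CPM, others 78.1 to 98.0), Krt8 (523 CPM, others at most 424), Nrg1 (19.9 CPM, others at most 15.8) and Csf3r (6.87 CPM, others at least 9.32). Ozone replicate 3 was apart for Prdx6 (1396 CPM, others at least 1577) and Muc5ac (3.46 CPM, others at least 5.23), ozone replicate 1 for Fabp5 (68.7 CPM, others at least 84.1) and ozone replicate 2 for Acta1 (269 CPM, others at most 1.11).

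The change at day 4 minus that at day 1 passed edgeR's test for 23 of 141 genes described, and for 4.24% of all genes tested. The genes described were partly picked by their day 1 change or as extremes of this difference. Their count is therefore raised by the choice of genes. Lower at day 4 were Fosl1 (-5.14), Esd (-0.92), F3 (-1.23), Prdx6 (-1.0), Gsta3 (-1.19), Gnl3 (-0.69) and Per1 (-1.07), and higher were Retnla (1.66), Ect2 (1.95) and Cdk1 (2.33). Gsta1 was lower at day 4 (adjusted p = 0.00659). These 11 passed without any of the 14 libraries that enter the difference.

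The other 12 lost the call without certain libraries. Gpx2 (-1.15) lost it without ozone or sham replicate 2 of day 4 (adjusted p 0.0555 and 0.0654), and Nqo1 (-1.71) without ozone replicate 1 of day 1, ozone replicate 1 or 3 of day 4 or sham replicate 3 of day 4 (0.0533 to 0.0829). Zbtb16 (-3.80) lost it without replicate 2 or 3 of either group at day 4 (0.0517 to 0.0571). Cldn4 (1.37) lost it without sham replicate 3 or 4 of day 1, sham replicate 1 or 2 of day 4 or ozone replicate 2 or 3 of day 4 (0.0523 to 0.078). Mki67 (1.78) lost it without ozone replicate 1 or sham replicate 2 of day 1, sham replicate 1 or 2 of day 4 or ozone replicate 2 or 3 of day 4 (0.0505 to 0.0842). Slc26a4 (1.28) lost it without sham replicate 1 or ozone replicate 1 or 3 of day 1, or without ozone replicate 2 or 3 or sham replicate 1 or 3 of day 4 (0.0509 to 0.113).

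A further 6 genes kept the call in 4 of the 14 omissions only. Cd74 (0.83) kept it without sham replicate 4 or ozone replicate 3 of day 1 and sham replicate 1 or ozone replicate 2 of day 4 (0.0666 to 0.193 in the others). Gpr171 (1.53) kept it without sham replicate 3 or 4 or ozone replicate 3 of day 1 and ozone replicate 2 of day 4 (0.0571 to 0.129). Gabrp (-0.69) kept it without sham replicate 3 or 4 or ozone replicate 1 or 4 of day 1 (0.0504 to 0.0962). Igfbp3 (-1.24) kept it without sham or ozone replicate 4 of day 1 and ozone replicate 1 or 3 of day 4 (0.0516 to 0.134). Fabp5 (0.61) kept it without ozone replicate 2, 3 or 4 of day 1 and ozone replicate 2 of day 4 (0.0582 to 0.132). Ucp1 (adjusted p = 0.0428) kept it without sham replicate 3 or 4 of day 1 and ozone replicate 2 or 3 of day 4 (0.0521 to 0.797).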

How the results depend on the processing

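The count of genes that differed between ozone and sham was 1704, and 1305 to 2220 under the other scalings, filters, tools and models. It was 1069 without both libraries numbered 2, and 904 to 1519 when 1 library was left out, lowest without ozone replicate 4. Against carbon black it was 1735, and 1076 (without ozone replicate 4) to 1550 with 1 library left out. Against co-exposure it was 0 in edgeR, also with each library left out (0 to 0), and 23 in DESeq2. The day difference count was 631, against 1125 with only the compared groups, and 365 to 624 with 1 library left out, at most 397 without ozone replicate 1 of day 1, any ozone library of day 4 or sham replicate 2 of day 4. With a replicate block the counts were 1737, 1681, 0 and 611, and with the block and only the compared groups the day difference count was 1163. Same-numbered sham and ozone libraries correlated at 0.057, 0.373, 0.199 and 0.102 in their deviations from the group means. Sham replicates 2 and 3 correlated best with the ozone library of their own number. Sham replicate 1 correlated best with ozone replicate 4 (0.184) and sham replicate 4 with ozone replicate 1 (0.111). The labels name no pairs, so the numbers were not taken as pairs, and these correlations do not settle whether they are. No result reversed. Of all 1704 genes that passed, 895 also passed without ozone replicate 4 and 973 without both libraries numbered 2. Many of the genes described were picked for a small p or a large change in the main fit, which favours keeping the call. Of 141 genes described, 135 had a value in all 18 settings and 123 of these kept their call in each. A further 4 kept it wherever they had a value, and 14 changed in at least 1 setting. Beyond those named with their libraries, Nfe2l2 gave an adjusted p of 0.0543 without both libraries numbered 2, and with a replicate block and only the compared groups Per2 gave 0.0774 and S100a9 0.0429. Mt1 did not pass in limma-voom (adjusted p = 0.0637), with upper-quartile scaling (0.0557) or without a low-count filter (0.0829). Nor did Mt1 pass with only the compared groups (0.07), a replicate block (0.057) or both (0.153). Ucp1 did not pass in limma-voom (0.475), without a filter (0.0766) or with a block (0.124). Nr1d1 did not pass without a filter (0.0589) or with only the compared groups (0.104). Cyp1a1 did not pass in limma-voom (0.0838), nor Sftpc without a filter (0.0732). Libraries of 5922424 to 8383771 counts limit genes below about 0.507 CPM.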

Other observations

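Some gene groups not described above were also measured. Of 19 genes of glycolysis and the hypoxia response 4 rose and none fell (median 0.15): Pgk1 (0.76 ± 0.13, adjusted p = 0.000334) and Pkm (0.52 ± 0.09, adjusted p = 0.000418), which carry the ATP-yielding steps, the glucose transporter gene Slc2a1 (0.45 ± 0.11, adjusted p = 0.00976) and Ldha, which makes lactate (0.41 ± 0.11, adjusted p = 0.0118). Of 21 cytosolic chaperone genes 1 rose (4.76%), and of 21 genes of the unfolded protein response 2 rose (9.52%). These shares are near the 6.81% of all genes tested that rose. The chaperone count was 2 without ozone replicate 1, 1 without sham replicate 4 and 0 without any of the other 6 libraries. The unfolded protein response count was 1 when any library but sham replicate 4 was left out. Among 15 genes of phagocytic and lipid-handling macrophages 4 rose and 2 fell. The risers Lgals3, Spp1, Cd63 and Cd9 are not confined to macrophages, and the genes that fell, Fabp5 and Apoe, carry lipid. Apoe changed by -0.60 ± 0.17 (adjusted p = 0.0208). Without ozone replicate 4, 2 of this list rose and 1 fell, and 1 fell without ozone or sham replicate 2. In skeletal muscle (15 genes) and hyaluronan (11) lists none passed in edgeR, DESeq2 or limma-voom and none had an unadjusted p under 0.05. The same held for 10 erythrocyte genes in the model of all groups, but 2 of them were higher after ozone with only the compared groups in edgeR.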
